A study of Mus musculus with 220 samples.

Results

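The acyl-CoA thioesterases are the enzymes that split an activated fatty acid (an acyl-CoA) into the free acid and coenzyme A. Their levels were followed here across livers of mice from 96 mothers' strains. The members were chosen by name, as the 10 genes Acot1, Acot2, Acot3, Acot4, Acot7, Acot8, Acot9, Acot10, Acot12 and Acot13. Of these 10 genes, 9 had a probe set assigned to their symbol alone, among 17097 genes measured in this way. Acot4 had none, and was covered only by 2 probe sets assigned to Acot3 and Acot4 jointly. Together with 11 probe sets of a single symbol, the family was read by 13 probe sets.

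Hepatic RNA of 220 female Ath-HMDP mice was measured, each on its own array (Affymetrix HT MG-430 PM). Every mouse was the F1 offspring of a C57BL/6J father and shared his haplotype, and all of them, including those taken as controls, had human transgenes for APOE-Leiden and for CETP. Fathers were heterozygous for APOE-Leiden and homozygous for CETP. The mice were given chow for 8 weeks and then a Western diet rich in cocoa butter fat and cholesterol for 16 weeks, and were killed at 24 weeks of age after a short fast. Of the 96 strains of mothers, 34 belonged to the BXD panel with 83 mice, 21 to AXB/BXA with 47 and 8 to CXB with 17. A further 4 belonged to BXH with 8 mice, and 29 were classical inbred with 65 mice. The label of 1 BXD strain, BXD24/TyJ-Cep290<rd16>/J (3 mice), names the rd16 allele of Cep290, and these mice were kept among BXD. In the recombinant inbred panels each strain is homozygous for a mixture of C57BL/6J segments and segments of another progenitor, which is DBA/2J for BXD, A/J for AXB/BXA, BALB/cJ for CXB and C3H/HeJ for BXH. The 4 contrasts below set mice with an A/J mother (n = 3), a DBA/2J mother (n = 3), a BALB/cJ mother (n = 3) or a C3H/HeJ mother (n = 2) against mice with a C57BL/6J mother (n = 2). Only 9 strains had a single mouse, 51 had 2, 35 had 3 and 1 had 4, and the labels do not say which mice shared a litter, a cage or a day of collection. In an F1 liver the arrays do not separate the maternal from the paternal transcript.

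Values are log2 signals, on which a difference of 1 is a doubling. They lay between 1.90 and 13.94, and the median gene had a mean of 4.77. Array medians spanned only 3.43 to 3.56, the lowest median correlation of an array with the others was 0.981, and no 2 arrays held identical values. A level on one probe set was not set against that on another, since probes differ in brightness. The tissue labelled liver carried hepatocyte markers at high levels, with a mean over 9 of 10 markers between 12.1 and 12.4 in every strain.

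As background, acyl-CoA thioesterases come in a pair of structural classes. Acot1, Acot2, Acot3 and Acot4 share an alpha/beta hydrolase fold and lie side by side on mouse chromosome 12. Their proteins are not all sent to the same part of the cell. Acot1 is cytosolic, Acot2 is mitochondrial, and Acot3 and Acot4 are peroxisomal. Acot7, Acot8, Acot9, Acot10, Acot12 and Acot13 have the hotdog fold instead. By freeing coenzyme A the enzymes set how much acyl-CoA is left for oxidation or for lipid synthesis, and several of them, Acot1 above all, are known targets of the fatty acid receptor PPARa in fasted mouse liver.

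The promoters of the chromosome 12 genes are shown because Acot1 to Acot4 are close copies that share probes on the array, and that of Acot12 because it carries the same hexamer as Acot3 and Acot4. Each run is 200 bases before to 25 bases after the transcript start, on the strand of the gene, from RefSeq (assembly GRCm38.p6), and the capitals mark the hexamer AGGTCA on either strand, the element that PPARa and related nuclear receptors bind.
Acot2, chr12:83987661-83987885, plus strand: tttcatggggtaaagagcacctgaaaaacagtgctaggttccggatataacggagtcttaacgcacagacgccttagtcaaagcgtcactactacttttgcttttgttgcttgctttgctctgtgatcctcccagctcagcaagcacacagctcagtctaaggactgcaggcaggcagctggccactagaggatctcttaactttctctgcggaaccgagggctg
Acot1, chr12:84009302-84009526, plus strand: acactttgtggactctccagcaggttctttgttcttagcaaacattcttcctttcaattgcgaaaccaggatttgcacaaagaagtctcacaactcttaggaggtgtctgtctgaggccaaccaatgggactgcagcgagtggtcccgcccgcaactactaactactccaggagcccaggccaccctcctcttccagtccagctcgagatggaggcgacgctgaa
Acot4, chr12:84038179-84038403, plus strand: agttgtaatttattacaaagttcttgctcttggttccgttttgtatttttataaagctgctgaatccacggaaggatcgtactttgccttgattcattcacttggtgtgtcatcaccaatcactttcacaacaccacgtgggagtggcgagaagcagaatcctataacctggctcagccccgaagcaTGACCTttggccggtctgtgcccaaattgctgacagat
Acot3, chr12:84051944-84052168, plus strand: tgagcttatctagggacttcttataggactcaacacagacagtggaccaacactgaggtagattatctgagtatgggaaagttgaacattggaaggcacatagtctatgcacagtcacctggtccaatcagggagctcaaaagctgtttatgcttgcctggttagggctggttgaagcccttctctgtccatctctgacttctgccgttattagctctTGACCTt
Acot12, chr13:91741321-91741545, plus strand: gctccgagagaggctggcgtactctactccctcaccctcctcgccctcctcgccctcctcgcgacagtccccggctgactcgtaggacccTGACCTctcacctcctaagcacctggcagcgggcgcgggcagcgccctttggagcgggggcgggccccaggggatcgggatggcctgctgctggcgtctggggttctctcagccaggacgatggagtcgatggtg

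The hexamer was found in 3 of the 9 members with a promoter entry (250 bases before to 50 after the start were searched), and in 16.0% of 27025 mouse promoters of the same length. It starts 110 bases before the transcript start in Acot12, 13 bases before it in Acot4 and 18 bases after it in Acot3. Its looser direct repeat with a 1-base spacer, AGGNCANAGGNCA on either strand, matched in 0 of the 9 members and in 0.381% of all promoters. These matches are letters in a window and carry no measurement of binding.

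The first question was how far each thioesterase differed with the mother's strain. All 9 members measured by their own probe set differed across the 87 strains with 2 or more mice (limma F-test, 211 mice, Benjamini-Hochberg adjusted p between 2.43e-20 for Acot10 and 4.34e-09 for Acot13). Strain differences were common on these arrays, and 59.2% of all genes were called in the same test. Between-strain variance made up 0.492 to 0.694 of the total for the members, against a median of 0.251 over all genes. Acot13 was the only 1 of the 9 below a share of 0.5, a level that 21.9% of all genes reached. Its call was lost without replicate 2 of each strain (adjusted p = 0.133), where 37.7% of all genes were still called. That fit also drops the 51 strains with 2 mice, so fewer strains were compared. In bulk liver, fewer cells of a type and less RNA per cell cannot be told apart, here and below.

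Acot1, the cytosolic long-chain thioesterase, ranged widely among strains. Its probe set (1449065_PM_at) read 10.01 and 9.87 in the 2 C58/J mice, 9.93 and 9.50 in SWR/J mice and 9.59 and 9.13 in BXD50/RwwJ mice. At the low end it read 6.06 and 7.05 in AXB19/PgnJ mice, 7.01 and 6.40 in I/LnJ mice and 6.56 and 6.93 in AXB13/PgnJ mice. Mice of a strain were close at the high end and farther apart in AXB19/PgnJ. Strain means spanned 3.38 on the log2 scale, a 10.4-fold range, against an SD of 0.51 between mice of a strain. The share of variance between strains was 0.605 (95% interval 0.477 to 0.713).

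Acot2, its mitochondrial counterpart, was read by 2 probe sets. The set with the higher mean (1422997_PM_s_at) has the suffix that marks a match to more than 1 transcript, so it may also read Acot1. On it SWR/J mice had 10.47 and 10.04, C58/J mice 10.30 and 10.17 and BXD50/RwwJ mice 9.69 and 9.35. AXB13/PgnJ mice had 6.95 and 7.15, AXB19/PgnJ mice 6.86 and 7.42 and C57BLKS/J mice 7.22 and 7.17. Strain means thus spanned 3.20, with a share of 0.604. The unique set (1422996_PM_at) was dim, with a mean of 5.0, and its share was 0.333 (95% interval 0.172 to 0.486). C58/J mice again led on it with 6.88 and 6.64, while SWR/J, the highest strain on the shared set, was number 15 of 96 with a mean of 5.41. The unique set was also called across strains (limma adjusted p = 3.01e-05), but not among BXD strains, where its adjusted p was 0.711.

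Acot3, the peroxisomal long-chain enzyme, had the widest range of the family. Its set (1422925_PM_s_at) also has the suffix for more than 1 transcript and may read Acot4, so its range may not be that of Acot3 alone. It read 9.83, 10.37 and 10.37 in BXD5/TyJ mice, 10.45 and 9.13 in NOD/ShiLtJ mice and 9.85, 9.87 and 9.62 in BUB/BnJ mice. It read 4.95, 5.40 and 4.77 in CXB8/HiAJ mice, 4.67 and 6.43 in KK/HlJ mice and 5.60, 5.59 and 5.79 in AXB6/PgnJ mice. The 2 mice of NOD/ShiLtJ and of KK/HlJ lay far apart, whereas the mice of the other strains named lay closer together. Strain means spanned 5.15, or 35.5-fold, a range above that of 99.8% of genes. Mice of a strain also differed most for this member, with an SD of 0.85, and the share between strains was 0.633 (95% interval 0.511 to 0.735).

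Acot4, a peroxisomal enzyme that splits succinyl-CoA and other dicarboxylic esters, was seen only through the joint sets. The first (1422076_PM_at) read 8.25, 8.44 and 8.48 in BXD5/TyJ mice and 5.97 and 6.01 in C57BLKS/J mice, and its share was 0.628. On the second (1422077_PM_at), BXD5/TyJ mice had 7.41, 7.71 and 7.78 and KK/HlJ mice 5.47 and 5.87, and the share was 0.515. Both were called across strains (limma adjusted p = 2.37e-16 and 6.48e-11). Their strain means followed those of Acot3 with r = 0.934 and r = 0.958 over 96 strains, and what part of either came from Acot4 is not known.

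**Figure D1:**
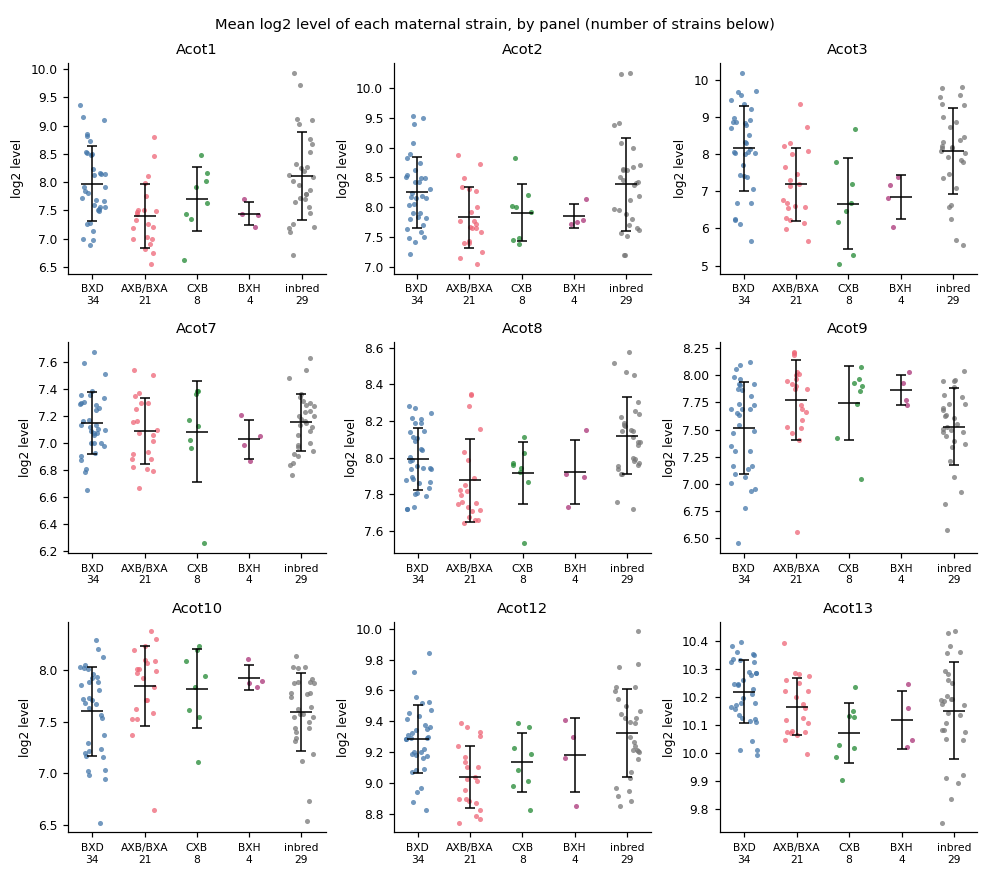
Mean log2 level of each of the 96 maternal strains (points, y axis) for the 9 members with a probe set of their own, by panel (x axis, number of strains below each name); bars give the panel mean ± SD of strain means. Acot3 spread over 5.15 log2 units and Acot13 over 0.69, and the panels overlapped for every member.

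Acot8, a peroxisomal thioesterase of broad specificity, moved over a narrower span of 1.04. NOD/ShiLtJ mice had 8.58 and 8.57, RIIIS/J mice 8.38 and 8.65 and SWR/J mice 8.52 and 8.42. AXB6/PgnJ mice had 7.83, 7.67 and 7.44, BXA11/PgnJ mice 7.54 and 7.78 and AXB13/PgnJ mice 7.62 and 7.71. The share was 0.668 (95% interval 0.553 to 0.762). The overall lowest mean, 7.53, came from the single CXB11/HiAJ mouse.

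Acot12, the cytosolic acetyl-CoA hydrolase typical of liver, had the highest share of the family at 0.694 (95% interval 0.585 to 0.781). Its brighter set (1449457_PM_at) read 10.04 and 9.93 in SWR/J mice, 9.85 and 9.84 in BXD50/RwwJ mice and 9.86 and 9.68 in NZW/LacJ mice. It read 8.78 and 8.71 in BXA2/PgnJ mice, 8.68 and 8.85 in AXB19/PgnJ mice and 8.62 and 8.95 in BXA8/PgnJ mice. All 3 low strains belonged to the AXB/BXA panel. The other Acot12 set (1419395_PM_at) was called as well (limma adjusted p = 2.45e-11), but it placed AKR/J differently. AKR/J mice had the lowest readings of any strain on it, 6.77 and 6.63, whereas on the brighter set their mean of 9.62 was number 6 of 96. Whether a strain variant lies under the probes of either set was not checked. The sets agreed closely among BXD strains (r = 0.882) and loosely among classical inbred strains (r = 0.222).

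Acot9 and Acot10 encode mitochondrial thioesterases, and Acot10 is a single-exon copy of Acot9, so that probes of either may read both. Acot9 (1418073_PM_at) was lowest in BXD55/RwwJ mice with 6.03, 7.0 and 6.33, in AXB2/PgnJ mice with 6.46, 6.66 and 6.56 and in SWR/J mice with 6.71 and 6.45. It was highest in AXB15/PgnJ mice with 8.47, 8.15 and 8.02, in BXD69/RwwJ mice with 8.12, 7.90 and 8.27 and in CXB7/ByJ mice with 8.04, 8.05 and 8.14. Strain means spanned 1.76, a 3.39-fold range, and the share was 0.680. Acot10 (1449968_PM_s_at) put the same 3 strains at each end, with 8.66, 8.24 and 8.23 in AXB15/PgnJ mice and 6.15, 7.11 and 6.31 in BXD55/RwwJ mice. Its span was 1.85 and its share 0.693 (95% interval 0.584 to 0.781).

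Acot7, a cytosolic long-chain thioesterase best known from brain, spanned 1.42 with a share of 0.571. BXD71/RwwJ mice had 7.64, 8.00 and 7.38, NOD/ShiLtJ mice 7.69 and 7.57 and BXD55/RwwJ mice 7.53, 7.73 and 7.53. BXD40/TyJ mice had 6.91, 6.54 and 6.51 and AXB6/PgnJ mice 6.82, 6.40 and 6.78, and a lone CXB11/HiAJ mouse was lower than any strain mean at 6.26. Acot13, a mitochondria-associated thioesterase, was the steadiest member. It read 10.35 and 10.52 in RIIIS/J mice, the highest strain, and 9.64 and 9.86 in KK/HlJ mice, the lowest. Strain means spanned only 0.69, with an SD of 0.12 between mice of a strain.

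Strains next to each other in the order were hardly resolved, at its ends as elsewhere. Between strains next to each other in the order, the gap in means exceeded 2 standard errors in 0 of 95 neighbouring pairs for Acot1, Acot2, Acot3, Acot8, Acot9, Acot10, Acot12 and Acot13, and in 1 of 95 for Acot7. With 1 to 4 mice a strain such gaps are rarely resolved, so the counts do not show whether the levels fall into steps. The largest gap for the shared Acot2 set was 0.71, between C58/J and the next strain, BXD50/RwwJ.

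The remaining thioesterases of the mouse were read for reference. Acot5 and Acot6, the other chromosome 12 paralogs, were dim (means 2.70 and 3.22) and were not called across strains (limma adjusted p = 0.647 and 0.493). Acot11, a thioesterase of brown fat, was dim too but was called (mean 3.90, adjusted p = 4.62e-15). Of the list of 13 thioesterases outside the family described here, 7 were called (53.8%), against 59.2% of all genes.

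Within each recombinant panel the test was whether strains differed in thioesterase level. No genotype entered it, so a call shows a difference between strains, and the part of any progenitor segment was not tested. Among the 31 BXD strains with replicate mice 9 of 9 members were called, where 42.2% of all genes were. The BXD calls of Acot12 and Acot13 were lost without replicate 2 of each strain (adjusted p = 0.0987 and 0.885), and that of Acot13 without replicate 3 (adjusted p = 0.245). Calls over all genes in BXD fell to 15.8% without replicate 2 and 33.2% without replicate 3. Without replicate 2 the BXD strains with 2 mice also dropped out, so fewer strains were compared. Among 18 AXB/BXA strains 8 of 9 were called, where 29.0% of all genes were, and Acot13 was the exception (adjusted p = 0.121). Acot9 had the strongest signal among AXB/BXA strains, with F = 10.9 (adjusted p = 9.22e-07), and its between-strain share there was 0.788. Leaving out the first or the second mouse of each strain also dropped the AXB/BXA strains with 2 mice. It left 5 AXB/BXA calls, and those of Acot2, Acot7 and Acot12 were lost both times. Calls over all genes also fell, to 13.7% without the first mouse and 12.3% without the second. None of the 9 passed in limma among 7 CXB strains or 4 BXH strains, where 1.95% and 1.75% of all genes did, although 5 members had an unadjusted p under 0.05 in CXB (Acot3, Acot7, Acot9, Acot10 and Acot12) and 2 in BXH (Acot8 and Acot12). In CXB, leaving out replicate 1 or 2 drops every strain with 2 mice and leaves CXB7/ByJ against CXB8/HiAJ alone. Without replicate 2, Acot1 and Acot2 differed between these strains (adjusted p = 0.0481 and 0.021), as did 0.69% of all genes. Without replicate 1, Acot2 did (adjusted p = 0.0471), as did 0.257% of all genes. These fits do not test the 7 CXB strains.

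Mean level differed between the 5 panels for 4 of 9 members (limma F-test on strain means, 8.72% of all genes called). Acot3 averaged 8.15 ± 1.15 in BXD strains, 7.18 ± 0.98 in AXB/BXA strains, 6.66 ± 1.22 in CXB strains, 6.85 ± 0.59 in BXH strains and 8.07 ± 1.16 in classical inbred strains (SD over strains, adjusted p = 0.0115). Acot1 averaged 7.98 ± 0.66, 7.41 ± 0.57, 7.70 ± 0.57, 7.44 ± 0.20 and 8.11 ± 0.77 in the same order (adjusted p = 0.0432). Both were lowest or near it in AXB/BXA, CXB and BXH strains, and the panels overlapped. For Acot12 the means were 9.28 ± 0.22 in BXD, 9.04 ± 0.20 in AXB/BXA, 9.13 ± 0.19 in CXB, 9.18 ± 0.24 in BXH and 9.32 ± 0.29 in classical inbred strains (adjusted p = 0.017). Acot8 also differed (adjusted p = 0.0163), with 7.99 ± 0.17 in BXD, 7.88 ± 0.23 in AXB/BXA, 7.92 ± 0.17 in CXB, 7.92 ± 0.17 in BXH and 8.12 ± 0.21 in classical inbred strains. With single-mouse strains left out only Acot8 and Acot12 passed, and Acot1 and Acot3 had adjusted p = 0.0714 and 0.0757. Without the classical inbred strains only Acot3 and Acot12 passed, with adjusted p = 0.0833 for Acot1 and 0.42 for Acot8. The share of all genes called was not computed for the fits without single-mouse strains or without classical inbred strains.

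Parental strains give the contrast behind each panel. Acot9 and Acot10 were higher in mice with an A/J, BALB/cJ or C3H/HeJ mother than in mice with a C57BL/6J mother, and no other member passed in any of the 4 contrasts. Acot9 read 7.87, 8.09 and 7.72 in A/J mice, 8.04, 8.10 and 7.98 in BALB/cJ mice and 8.02 and 7.90 in C3H/HeJ mice, against 6.94 and 7.19 in C57BL/6J mice. All 8 of these mice exceeded both C57BL/6J mice, and DBA/2J mice, with 7.14, 7.72 and 7.24, overlapped them. Such separation rests on 2 C57BL/6J mice, and the share of all genes separated in this way was not computed. The log2 differences from C57BL/6J were 0.83 ± 0.23 for A/J (SE, limma adjusted p = 0.00884), 0.98 ± 0.23 for BALB/cJ (adjusted p = 0.00169), 0.90 ± 0.25 for C3H/HeJ (adjusted p = 0.0129) and 0.31 ± 0.23 for DBA/2J (adjusted p = 0.71). Genes called higher made up 5.91% of all genes in the A/J contrast, 5.52% in BALB/cJ, 5.38% in C3H/HeJ and 1.12% in DBA/2J. The 4 contrasts share the same pair of C57BL/6J mice, so they are not independent of each other.

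Acot10 followed, with 7.92, 8.25 and 7.90 in A/J mice, 8.07, 8.22 and 8.12 in BALB/cJ mice and 8.17 and 7.89 in C3H/HeJ mice, against 7.03 and 7.35 in C57BL/6J mice. Its differences were 0.84 ± 0.23, 0.95 ± 0.23 and 0.84 ± 0.25 (adjusted p = 0.0091, 0.00261 and 0.0229). These calls rest on very few mice. Without C57BL/6J replicate 1 a single C57BL/6J mouse is left. The Acot9 differences were then 0.71 for A/J, 0.85 for BALB/cJ and 0.77 for C3H/HeJ, and those of Acot10 were 0.68, 0.79 and 0.68. These calls were lost there and without either C3H/HeJ mouse, and calls over all genes fell in the same fits. They were also lost without A/J replicate 2 (adjusted p = 0.0614 and 0.0684), where 6.98% of all genes were called in either direction. The differences stayed between 0.68 and 1.11 throughout.

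Acot3 showed the largest differences in the other direction, but they did not pass. It read 8.37, 7.73 and 7.44 in A/J mice, 6.78, 7.54 and 6.91 in BALB/cJ mice and 7.46 and 7.26 in C3H/HeJ mice, against 8.93 and 9.08 in C57BL/6J mice. None of the 8 overlapped the C57BL/6J mice, but the share of all genes separated in this way was not computed. The differences of −1.16 ± 0.76, −1.93 ± 0.76 and −1.65 ± 0.83 had adjusted p = 0.449, 0.113 and 0.278 with the spread taken over all strains. Genes called lower made up 4.61%, 4.20% and 3.15% of all genes in these contrasts. A fit on the 5 progenitor strains alone, whose own mice differ less, called Acot3 lower in all 3 (limma adjusted p = 0.0445, 0.00288 and 0.0146). The share of all genes called in that fit was not computed, and the shares above belong to the fit on all strains. DBA/2J mice had 10.16, 8.85 and 9.76, around and above the C57BL/6J values (difference 0.58 ± 0.76, adjusted p = 0.869). For DBA/2J 0 of 9 members passed in limma, and none had an unadjusted p under 0.05, where 1.12% of genes were called higher and 0.983% lower.

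**Figure D2:**
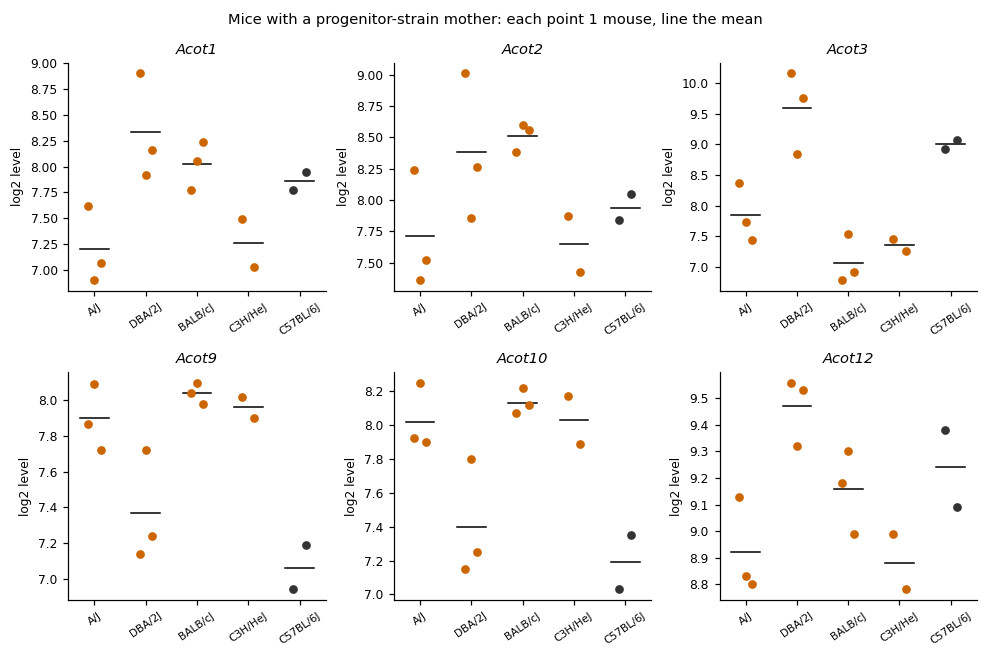
Log2 level (y axis, scaled for each gene) of 6 members in every mouse whose mother came from a progenitor strain (x axis); each point is 1 mouse and each line the mean. For Acot9 and Acot10 the A/J, BALB/cJ and C3H/HeJ mice all lie above the 2 C57BL/6J mice, and for Acot3 they all lie below. The share of all genes separated in this way was not computed.

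Markers of other liver cells moved in the same contrasts, though not every list in each of them. Macrophage and Kupffer cell genes (12 of 12 measured) had 5 called higher in A/J mice, led by Gpnmb and Itgax. Their mean level was 8.77 to 8.84 in A/J mice against 8.25 to 8.33 in C57BL/6J mice. In BALB/cJ mice 0 of them were called (8.24 to 8.40), and in C3H/HeJ mice 1 was called higher and 1 lower (8.18 to 8.22). Of the cholangiocyte genes, 0 were called in A/J mice. In C3H/HeJ mice 4 of 5 cholangiocyte genes were called higher, at 6.17 to 6.29 in C3H/HeJ mice against 4.44 to 4.61 in C57BL/6J mice, and in BALB/cJ mice 1 of 5 was, at 5.56 to 5.84. Of 7 stellate cell genes, the collagens Col1a1 and Col1a2 were called higher in C3H/HeJ mice and Col1a2 in BALB/cJ mice, and Lrat was called lower in A/J, BALB/cJ and C3H/HeJ mice. Endothelial genes had 3, 5 and 2 of 6 called lower in A/J, BALB/cJ and C3H/HeJ mice. In DBA/2J mice, where Acot9 and Acot10 were not called, 1 endothelial gene (Stab2) and 1 stellate cell gene (Lrat) were called lower. The mean over hepatocyte markers stayed between 12.06 and 12.38 in every mouse of these strains, while the urea cycle gene Ass1 was called lower in A/J and C3H/HeJ mice and Cps1 in C3H/HeJ mice. The part of these cells in the Acot9 and Acot10 differences was not tested.

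Whether the members moved together was read from strain means over the 96 strains. Strains of a panel share progenitor alleles and are not independent points, so the correlations are descriptions and carry no p. Among the 21 pairs without Acot9 and Acot10, r was above 0 for all 21 and above 0.5 for 11. Around strain means 15 of the 21 stayed above 0, and the other 6 each involved Acot7 or Acot13. All 14 pairs of Acot9 or Acot10 with another member had r below 0, 12 of them below −0.5. Those 14 signs also held within BXD, AXB/BXA, CXB and classical inbred strains taken alone, and among mice around their own strain mean. Thus strains with high Acot1, Acot2, Acot3, Acot8 and Acot12 tended to have low Acot9 and Acot10.

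Acot1 and the shared Acot2 set ran in parallel, with r = 0.956 and Spearman rho = 0.948 (r = 0.948 without the 2 strains farthest from the median of Acot1). Mice around their strain mean gave r = 0.930. With the unique Acot2 set, Acot1 gave r = 0.524 over all strains and r = 0.224 within BXD. How much of the parallel comes from shared probe matches cannot be read from these values. Acot1 also tracked Acot8 (r = 0.799, rho = 0.811), Acot12 (r = 0.733, rho = 0.749) and Acot3 (r = 0.663, rho = 0.685). Without the 2 farthest strains these became 0.774, 0.705 and 0.653. Acot7 was more loosely tied to Acot1, with r = 0.362 over strains and −0.099 around strain means. Over strains it was closer to Acot3 (r = 0.552), and it opposed Acot9 (r = −0.633) and Acot10 (r = −0.691).

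Acot9 and Acot10 gave r = 0.974 over strains and 0.890 around strain means, as near-identical genes on probes that may read both. Both opposed Acot3 most strongly, at r = −0.758 for Acot9 (rho = −0.775, −0.763 without the 2 farthest strains) and r = −0.758 for Acot10 (rho = −0.782). For Acot9 it was −0.808 within BXD, −0.758 within AXB/BXA, −0.729 within CXB and −0.634 within classical inbred strains. Around strain means it was −0.543. In single strains, BXD55/RwwJ and AXB2/PgnJ, the lowest for Acot9, were number 9 and number 12 for Acot3 with means of 9.45 and 9.34. AXB15/PgnJ, the highest for Acot9, was number 90 for Acot3 with a mean of 5.98. CXB8/HiAJ departed from the rule between Acot1 and Acot3, being the lowest strain for Acot3 and number 20 of 96 for Acot1, at 8.48.

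**Figure D3:**
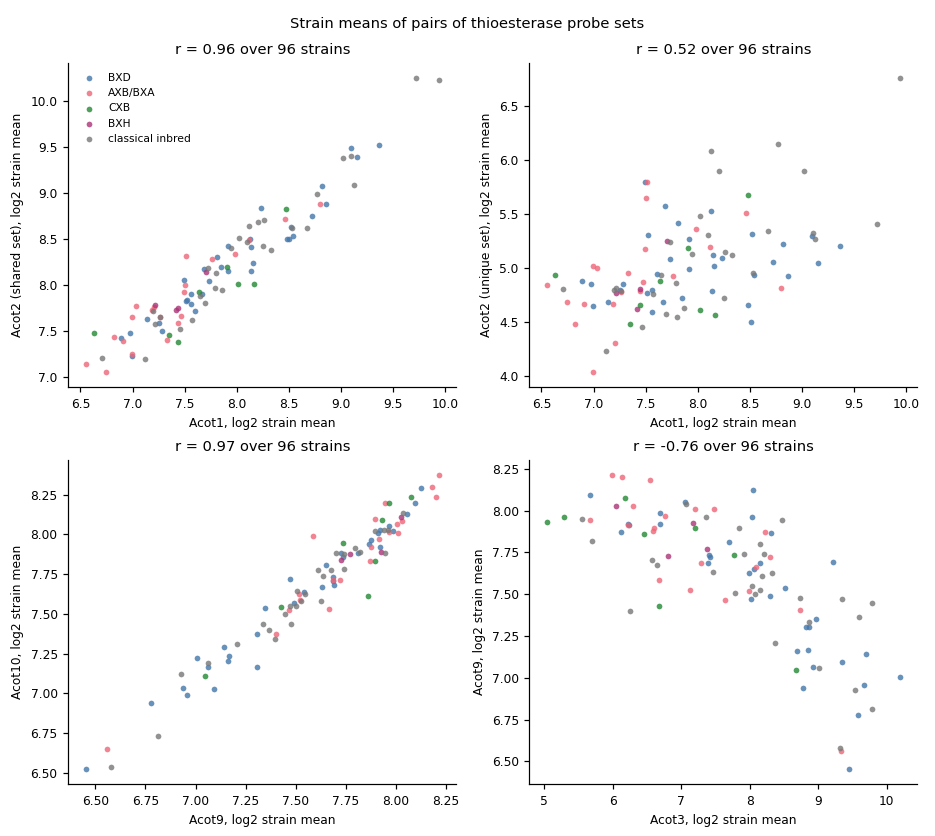
Strain means (log2) of 4 pairs of probe sets, each point 1 of 96 strains and coloured by panel. Acot1 rises with the shared Acot2 set (r = 0.96) more tightly than with the unique Acot2 set (r = 0.52), Acot9 with Acot10 (r = 0.97), and Acot9 declines as Acot3 rises (r = −0.76).

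**Figure D4:**
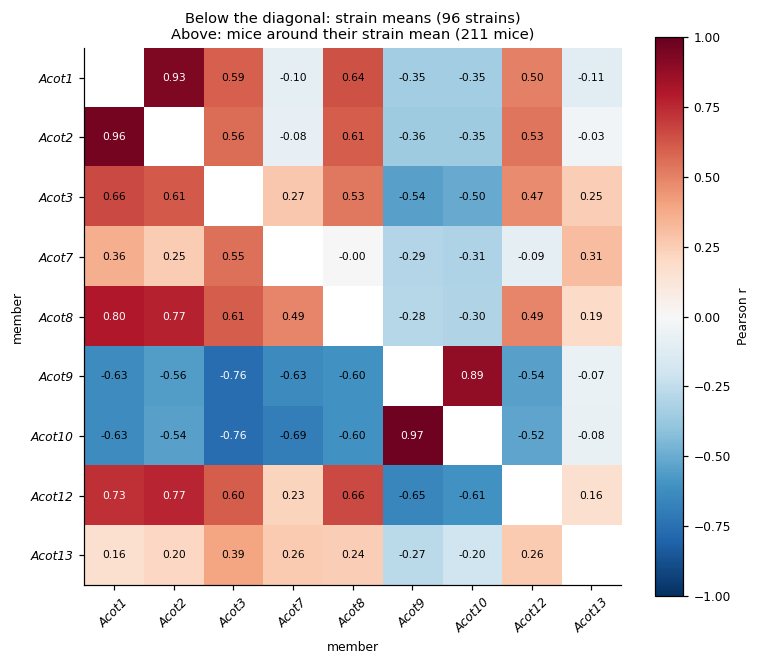
Pearson r between the 9 members, below the diagonal over 96 strain means and above it over 211 mice around their strain mean (red positive, blue negative). Acot9 and Acot10 are negative with each of the other members on both sides, and Acot13 is weakly related to all of them, with r between −0.27 and 0.39 over strains.

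Genes whose strain means were most like each member's were named by rank over 17097 genes. Acot1 was nearest to Slc22a5, the carnitine transporter (r = 0.816), Cyp4a10, a fatty acid hydroxylase and classical PPARa target (r = 0.813), and the enoyl-CoA isomerases Ech1 (r = 0.795) and Eci2 (r = 0.789), with Hsdl2 (r = 0.794) between them. Farthest were Tgfbr2, a receptor of transforming growth factor beta (r = −0.749), and Gas2l3 (r = −0.741). Acot2 was nearest to Hsdl2 (r = 0.864), Hadhb, a subunit of the mitochondrial trifunctional protein (r = 0.824), and Acadl, a long-chain acyl-CoA dehydrogenase (r = 0.783), then Cops6 and Slc27a2. Acot8 was nearest to Slc25a20, the mitochondrial carnitine carrier (r = 0.808), and to the monoacylglycerol lipases Mgll (r = 0.806) and Abhd6 (r = 0.796). Acot12 was nearest to Slc27a2, a very long chain acyl-CoA synthetase (r = 0.848), Mmd (r = 0.840), Khdrbs3 (r = 0.830), Etfdh, which passes electrons of fat oxidation to ubiquinone (r = 0.829), and Slc25a13 (r = 0.823).

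Acot3 had other neighbours. They were Trim24, a nuclear receptor coregulator (r = 0.864), Aspa, which releases acetate from N-acetylaspartate (r = 0.857), Cyp2b9 (r = 0.839), a female-predominant cytochrome P450 of mouse liver, Cux2 (r = 0.839), a female-predominant transcription factor of mouse liver, and Homer2 (r = 0.829). All mice here were female. Around strain means, r was 0.779 for Trim24, 0.734 for Cux2 and 0.631 for Cyp2b9. Vmp1 (r = −0.788) and D17H6S56E-5 (r = −0.785) stood at the other end. Acot7 was nearest to Dgcr6 (r = 0.812), the respiratory complex I subunits Ndufb10 (r = 0.791) and Ndufb9 (r = 0.787), and Pcyt2, an enzyme of phosphatidylethanolamine synthesis (r = 0.789).

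Acot9 had the closest neighbours of any member. Its strain means matched those of Cstb, a cathepsin inhibitor (r = 0.953), the annexins Anxa2 (r = 0.934) and Anxa5 (r = 0.923), S100a11, a calcium-binding partner of annexins (r = 0.925), and Atp6v0e, a proton pump subunit (r = 0.923). Acot10 shared Cstb (r = 0.938), Atp6v0e (r = 0.918) and Anxa2 (r = 0.913) with it. At the far end for both stood Aspdh, with r = −0.919 for Acot9 and −0.926 for Acot10, and Hibadh, a mitochondrial enzyme of valine breakdown, with −0.899 and −0.894. As many as 13.7% of all genes had r above 0.5 with Acot9, against 3.40% with Acot1 and 0.205% with Acot13. The nearest gene to Acot13 was Tdp2, at only r = 0.646, followed by Atp5c1, a subunit of ATP synthase (r = 0.614).

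Genes of the same pathways were then read as lists. The calls counted for each list are across strains, where 59.2% of all genes were called. In mitochondrial fatty acid oxidation 16 of 19 genes were measured and all 16 were called across strains. Their median r with Acot1 was 0.655, against 0.042 over all genes, and 13 of 16 were above 0.5, where 3.40% of all genes were. Beside Slc22a5 and Slc25a20 they included Cpt2, a carnitine palmitoyltransferase (r = 0.759), Hadhb (r = 0.757) and Eci1 (r = 0.706). With Acot9 12 of 16 were below −0.5, where 8.54% of all genes were. For the list the share of variance between strains had a median of 0.609, against 0.251 for all genes.

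Peroxisomal oxidation genes (19 of 21 measured, 17 called) had a median r of 0.543 with Acot1 and 0.624 with Acot8. Ehhadh, the peroxisomal bifunctional enzyme, reached r = 0.769 with Acot1. Hacl1, a lyase of 2-hydroxy and branched acyl-CoA, was the member of the list closest to Acot3 (r = 0.757), and Decr2, a dienoyl-CoA reductase, was at r = 0.819 with Acot12. Acox2 and Acox3, the oxidases of branched-chain substrates, went against the list with r = −0.136 and −0.077 for Acot1. Among PPARa targets (19 of 25 measured, 18 called) 11 were above r = 0.5 with Acot1, including Fabp1 (r = 0.705), Aldh3a2 (r = 0.718) and Creb3l3 (r = 0.711). Fgf21, a secreted target of the same receptor, had r = −0.160 with Acot1 and 0.534 with Acot9, and Cd36 and Pdk4 had r = −0.061 and 0.288 with Acot1.

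The enzymes that make acyl-CoA, which oppose the thioesterases, were mixed. Of 18 synthetases 16 were measured and 14 called, with a median r of 0.250 with Acot1. Slc27a2 (r = 0.785) and Acsf2 (r = 0.672) were positive with Acot1, and Acss1 (r = −0.592) and Acsl4 (r = −0.474) were negative. Slc27a5, the bile acid and very long chain acyl-CoA synthetase, was the lowest of the list with Acot9 at r = −0.856. In coenzyme A synthesis and breakdown (14 of 15 measured, all 14 called), Pank1, the pantothenate kinase that starts the pathway, had r = 0.655 with Acot1, 0.765 with Acot3 and −0.847 with Acot9. Nudt19 and Nudt7, which break down peroxisomal coenzyme A, had the highest shares of the list (0.768 and 0.729) and opposite signs with Acot1 (r = −0.440 and 0.309).

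Among transcriptional regulators (13 of 17 measured, 12 called), Ppara itself had r = 0.485 with Acot1, 0.686 with Acot3 and −0.758 with Acot9. Its share of variance between strains was 0.725. Mlxipl, the carbohydrate response factor ChREBP, had r = −0.799 with Acot9. Circadian genes (15 of 16 measured, 14 called) had a median r of 0.175 with Acot1 and −0.278 with Acot9, with members of both signs. The mean over the list, each gene first scaled to unit SD over strains, had r = −0.709 with Acot9. That was not particular to circadian genes. The same mean was negative with Acot9 for every pathway list, from −0.506 for PPARa targets to −0.783 for transcriptional regulators. It was −0.711 for mitochondrial fatty acid oxidation, and −0.755 for hepatocyte markers. Hlf, a proline and acidic amino acid-rich clock output factor, was the most negative with Acot9 (r = −0.724).

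**Figure D5:**
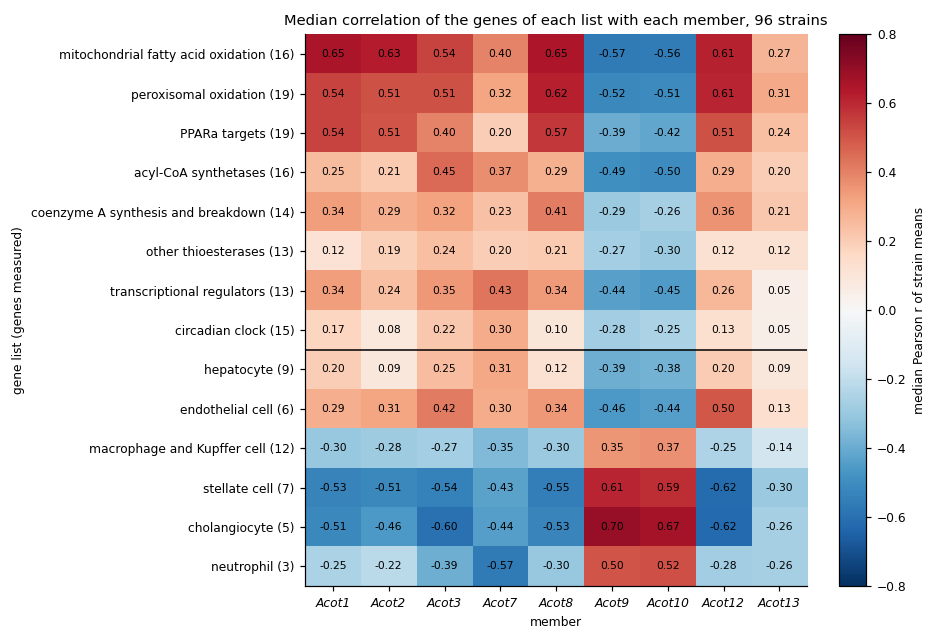
Median Pearson r of strain means between the genes of each list (rows, number of genes measured in brackets) and each member (columns), over 96 strains; rows below the line are cell type markers. Mitochondrial fatty acid oxidation has medians of 0.65 with Acot1 and −0.57 with Acot9, and cholangiocyte markers −0.51 and 0.70.

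Markers of several cell types moved with the same axis, in either direction. Over all genes 13.7% had r above 0.5 with Acot9. All 5 measured cholangiocyte markers did, as did 4 of 7 stellate cell markers and 5 of 12 macrophage markers. Col3a1 (r = 0.860) and Col1a1 (r = 0.851), the fibrillar collagens, Itgax (r = 0.808), Epcam (r = 0.777), Trem2 (r = 0.768) and Cd68 (r = 0.750) led. Resident Kupffer cell genes went the other way or were weak, with r = −0.436 for Clec4f, −0.257 for Timd4 and 0.305 for Adgre1. Endothelial cell markers also went the other way, with a median r of −0.457 with Acot9. Of these, 2 of 6 were below −0.5, where 8.54% of all genes were. The median was −0.287 for B and plasma cell markers, 0.074 for T and NK cell markers and 0.504 for neutrophil markers. The mean level over strains spanned 3.52 to 6.78 for cholangiocyte markers, 5.52 to 6.92 for stellate cell markers and 7.69 to 9.08 for macrophage markers. It spanned only 12.1 to 12.4 for hepatocyte markers, whose median r with Acot9 was −0.391. Of the 9 measured, 3 were below −0.5 (Cyp2e1, Ttr and Apoa1), and albumin was the only positive one (r = 0.025). Adipocyte, muscle and kidney or adrenal markers had mean levels of at most 3.64 in any strain. By limma 0 of their genes were called across strains, where 59.2% of all genes were. In the contrasts, Mb, the muscle myoglobin, was called lower in A/J mice. Over all genes 6.33% had r below −0.5 with Acot1. Of the markers, 4 of 5 cholangiocyte, 4 of 7 stellate cell and 5 of 12 macrophage genes did. The medians of these lists were −0.514, −0.535 and −0.303. Among macrophage markers 1, Clec4f, was above 0.5 (r = 0.518). The part of non-hepatocyte cells in the levels of Acot9, Acot10 and the other members was not tested.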

How the data were processed

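The values the authors deposited are log2 signals of probe sets. GCOS and RMA are the tools named by the submitters; RMA corrects background, quantile-normalizes arrays and summarizes probes. Versions and any batch correction were not given in the sources read. Of 45141 probe sets, 104 array controls were left out. Of the rest, 28898 had exactly 1 symbol in the platform annotation, 551 had several and 15588 were unnamed here. The set with the highest mean stood for its gene, and Acot2, Acot12 and the joint Acot3 and Acot4 sets were also read. Members and lists were chosen with earlier results of these data known.

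Strain, panel and progenitor tests were limma fits (limma 3.58.1, R 4.3.3), two-sided, with Benjamini-Hochberg adjustment over all 45037 probe sets, called under 0.05, and tested on simulated data. Strain and within-panel tests used strains with 2 or more mice. Progenitor contrasts took their spread from the 220 mice of all strains, with 124 residual degrees of freedom. Shares of variance came from one-way random-effects analysis of variance and include whatever mice of a strain shared. The labels do not say how mice of a strain were sampled, so p-values measure the spread between these mice. The genes named were all members, the 3 highest and 3 lowest strains with replicate mice, the 5 nearest and 2 farthest genes, and list genes by share or by correlation with a member; other list genes named were chosen after their values were seen. Arrays have no read depth, and their number limits precision. Normalization, filter, variance model, probe set, replicate and sample alternatives were run.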

Additional observations from a re-analysis of the deposited data

Results flagged for a closer look

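In BXD20/TyJ, the only strain with 4 mice, 1 mouse stood apart on the second joint Acot3 and Acot4 probe set (1422077_PM_at). It read 5.92, against 7.04 to 7.23 in the other 3 mice, and the gap made up 0.857 of the whole range. Across the 13 probe sets tested in this strain, chance alone flags about 1 in 20.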

How the results depend on the processing

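No paired analysis was possible because mice were numbered in accession order and the labels pair none of them. Median centring, a filter on dim probe sets and the mean of all probe sets of a gene kept every count of members called within 1.5 times its main value, and so did the intensity trend, under which Acot1 missed the panel threshold (adjusted p = 0.0501). The count between panels fell to 2 of 9 with strains of 2 or more mice and to 2 with the recombinant inbred panels only. It was 8 for mice with strain as a random block, whose common correlation of 0.183 is below the shares of every member. That fit therefore treats mice of a strain as closer to independent than the shares do, and its 8 calls may be too many. The share of all genes called under these panel alternatives was not computed. Leaving out 1 replicate at a time gave 8 to 9 members across strains (Acot13 lost, adjusted p = 0.133) and 7 to 9 in BXD. It gave 5 to 7 in AXB/BXA and 0 to 2 in CXB. Calls over all genes then ranged, in the same order, from 37.7% to 55.6%, 15.8% to 33.2%, 12.3% to 19.7% and 0.257% to 0.766%. Leaving out replicate 1 or 2 also drops every strain with 2 mice, which in CXB leaves only CXB7/ByJ and CXB8/HiAJ. In BXH leaving out a replicate gave 0, with no value without replicate 1 or 2, since no strain then has 2 mice. In the contrasts, leaving out a C57BL/6J or C3H/HeJ replicate leaves a single mouse in that group, so members called are not counted. The Acot9 and Acot10 differences stayed between 0.68 and 1.11 for A/J, BALB/cJ and C3H/HeJ, but their calls were lost in some fits. For DBA/2J they lay between 0.01 and 0.43, and no member was called. Signs turned for uncalled differences near 0. Acot7 in DBA/2J mice was −0.07 in the full fit and lay between −0.23 (without C57BL/6J replicate 1) and 0.08 (without C57BL/6J replicate 2), with 0.03 without DBA/2J replicate 2. In C3H/HeJ mice Acot7 lay between −0.27 and 0.04 without the same 2 mice. In BALB/cJ mice Acot8 lay between −0.09 without BALB/cJ replicate 1 and 0.02 without BALB/cJ replicate 3, and Acot12 between −0.23 without C57BL/6J replicate 2 and 0.06 without C57BL/6J replicate 1, with 0.00 without BALB/cJ replicate 3. The correlation of Acot1 with Acot7 turned to −0.099 around strain means. The causes were not tested. The correlations without the 2 farthest strains were added after seeing the data.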
